A study of Mus musculus with 20 samples.

Results

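The SOCS family and STAT5 genes are the 8 mouse genes Cish and Socs1 to Socs7, which encode the suppressors of cytokine signalling, and the pair Stat5a and Stat5b, which encode transcription factors that some of these suppressors restrain. They are 10 of the 21928 gene symbols measured, were picked by symbol alone, and each had a single probe set on the array, none of them marked as cross-hybridising in the deposited table. Their RNA was followed over 20 Affymetrix arrays in regulatory T (Treg) cells of the mouse, a kind of CD4 T cell that holds back immune responses and expresses Foxp3. The cells were sorted as CD4+YFP+CD44loCD62Lhi, labelled cTreg, out of spleen and pLN of C57BL/6J mice carrying Foxp3YFP-Cre, which puts a YFP and Cre reporter under the Foxp3 gene. The labels do not say whether mice were pooled. All groups share this strain and sort.

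Culture was the same for 6 of the 7 groups: anti-CD3/28 antibodies at 10 ug/ml with IL-2 at 200 U/ml. GGTI_18h (2 arrays) and GGTI_48h (3 arrays) were kept for 18 or 48 h in the prenylation inhibitor labelled GGTI after 2 h of pretreatment with it. FTI_18h and FTI_48h (3 arrays each) were treated likewise with the inhibitor labelled FTI. DMSO_18h and DMSO_48h (3 arrays each) carry the solvent label only. DMSO_0h (3 arrays) has the same label at 0 h, with no stimulation named in its sample label. Prenylation attaches lipids to proteins such as small GTPases; FTI and GGTI usually stand for inhibitors of farnesyl and geranylgeranyl transfer. The labels state neither the compounds nor their doses. Nor do they say that replicates come from separate mice or cultures, so a p-value here reflects the spread among these arrays, which may be technical, and the number of arrays limits every value.

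Interleukin-2 is the cytokine on which Treg cells depend. Its receptor, built from the chains Il2ra, Il2rb and Il2rg, activates the Janus kinases Jak1 and Jak3, which phosphorylate Stat5a and Stat5b. STAT5 then enters the nucleus and switches on target genes, among them Cish, Socs1, Socs2 and Socs3, whose proteins feed back on receptors and kinases. All SOCS proteins carry an SH2 domain that binds phosphotyrosine and a SOCS box that recruits elongins and a cullin ubiquitin ligase. Socs4 to Socs7 are the less studied members, and Socs5 and Socs4 have been linked to the epidermal growth factor receptor.

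STAT5 binds the palindrome TTCNNNGAA, and stretches before a transcript start of Cish, Socs1 and Socs3 are shown because these genes are known STAT targets that behaved differently on the arrays. The RefSeq promoter table used here (GRCm38.p6) held windows for 6 of the 10 genes, 8 windows in all. Each line below gives the 250 bases before a transcript's start, 5′ to 3′ along the gene, in lower case, with any match to the palindrome in capitals. The Cish stretch is chr9:107296409-107296658 on the plus strand, that of Socs1 is chr16:10785537-10785786 on the minus strand, and that of Socs3 is chr11:117969367-117969616 on the minus strand. The Socs3 stretch lies inside the annotated span of its gene (chr11:117966079-117970336), whereas those of Cish and Socs1 adjoin theirs.
Cish: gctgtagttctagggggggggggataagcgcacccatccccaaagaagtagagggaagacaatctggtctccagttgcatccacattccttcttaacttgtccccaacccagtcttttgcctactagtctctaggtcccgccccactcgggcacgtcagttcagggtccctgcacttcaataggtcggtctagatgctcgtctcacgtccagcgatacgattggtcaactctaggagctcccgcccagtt
Socs1: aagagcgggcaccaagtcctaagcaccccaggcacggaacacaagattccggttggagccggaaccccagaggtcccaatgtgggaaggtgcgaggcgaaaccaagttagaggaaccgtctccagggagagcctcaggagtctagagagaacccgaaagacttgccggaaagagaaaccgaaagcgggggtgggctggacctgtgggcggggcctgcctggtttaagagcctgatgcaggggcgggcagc
Socs3: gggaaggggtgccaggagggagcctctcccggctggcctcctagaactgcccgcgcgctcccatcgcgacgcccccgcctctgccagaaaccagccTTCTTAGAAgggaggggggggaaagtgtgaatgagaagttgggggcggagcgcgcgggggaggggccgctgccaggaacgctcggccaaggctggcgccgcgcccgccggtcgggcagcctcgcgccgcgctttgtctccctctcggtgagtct

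The Socs3 stretch held the match TTCTTAGAA, 154 to 146 bases before the start. The other 7 windows, those of Cish, Socs1, Socs4, Stat5a and Stat5b, had none. The palindrome reads the same on both strands, no other motif was searched, and 7.02% of all 32851 windows of this length held it. The letters describe these 250 bases only and say nothing about binding. Stat5a and Stat5b lie side by side on chromosome 11.

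Values are the authors' RMA signals on the log2 scale, so a difference of 1 is a doubling, and levels are not compared between genes. A gene was tested when its probe set exceeded the median of an array's probe sets on 2 or more arrays, which 12462 genes met. Of the 10 genes, 9 were tested: 8 were above the median on 20 arrays and Socs5 on 15. Socs6, which was above it on 0 arrays, averaged 3.71 to 4.44 over the groups and lay below the negative-control median in every group (5.17 to 5.64), so no change is given for it. Called means a Benjamini-Hochberg adjusted p under 0.05 over all genes tested, from limma fitted to all 20 arrays. Errors are SD for group means and SE for differences. The comparisons share arrays: DMSO_0h, DMSO_18h and DMSO_48h each enter several of them.

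The Treg label was checked against its markers. All 8 Treg and T cell markers (Foxp3, Il2ra, Ikzf2, Ctla4, Tnfrsf18, Ikzf4, Cd4 and Cd3e) were above the negative-control median in every stimulated group, and 7 of 8 in DMSO_0h, where Il2ra was not. Some markers of other cells were above that median too. In DMSO_0h they were 1 of 5 B cell genes (Cd79a), 3 of 7 myeloid genes (Cd68, Adgre1 and Cd74), 3 of 6 CD8 T and NK genes (Cd8a, Cd8b1 and Eomes) and 3 of 4 red cell genes (Hba-a1, Hbb-bt and Alas2). Cd74 averaged 8.42 and Cd8b1 8.41 in DMSO_0h, where the negative-control median was 5.64. Of the B cell genes, 4 of 5 were above the lower median of DMSO_18h and 2 of 5 above that of DMSO_48h. The summed linear signal of these lists moved with time in the DMSO groups. The 7 myeloid genes summed to 668 to 819 at 0 h, 354 to 412 at 18 h and 404 to 465 at 48 h. The 4 red cell genes summed to 318 to 554 at 0 h, 248 to 278 at 18 h and 193 to 224 at 48 h. The 6 CD8 T and NK genes summed to 486 to 556 at 0 h, 409 to 508 at 18 h and 611 to 711 at 48 h, and the 5 B cell genes to 261 to 330, 224 to 297 and 176 to 223. Members of the CD8 T and NK sum moved in opposite directions at 48 h against 0 h. By limma, Eomes rose by 2.51 (adjusted p = 3.72e-09) and Cd8b1 fell by -0.49 (adjusted p = 0.000587). The part of these markers in the differences over time was not tested. Across genes, which are no independent replicates, arrays of 1 group correlated at r = 0.9896 to 0.9962. DMSO_0h replicate 2 had the lowest array weight (0.344) and stood apart for Cish, as described with that gene.

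**Figure D1:**
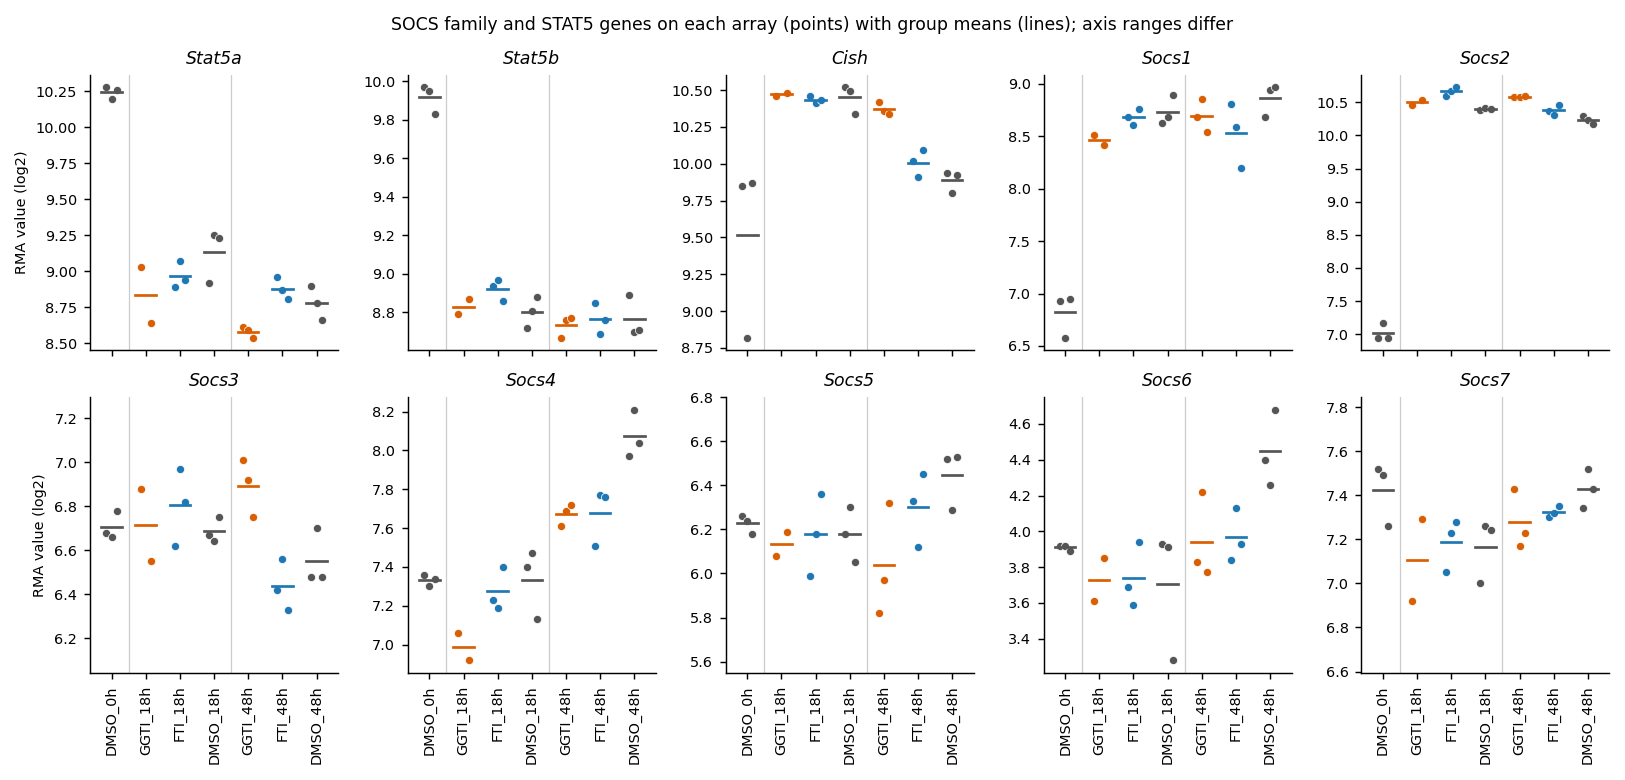
RMA value (log2) of each of the 10 genes on each of the 20 arrays (points), with a line at each group mean; the groups run from DMSO_0h through the 18 h groups to the 48 h groups, and each panel has its own axis range. Socs1 and Socs2 sit far higher, and Stat5a and Stat5b far lower, in all 6 stimulated groups than in DMSO_0h, while Socs6 stays between 3.28 and 4.68.

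The DMSO arrays follow the genes through stimulated culture without inhibitor. Between 0 and 18 h both STAT5 genes fell by more than 1 log2 unit, while 3 of their feedback inhibitors rose, Socs2 by 10.4-fold. By 48 h Socs1 and Socs2 were still high and Stat5a and Stat5b still low, Cish was back near its 0 h level, and Socs4, level at 18 h, had risen. Of the 9 genes tested, 6 were called at 18 h against 0 h (3 higher, 3 lower), where 60.9% of all genes were called (33.7% higher, 27.2% lower). At 48 h against 0 h, 5 were called (3 higher, 2 lower), beside 74.7% of all genes (38.5% higher, 36.2% lower). At 48 h against 18 h, 3 were called (1 higher, 2 lower), beside 29.1% (16.4% higher, 12.6% lower). These counts are close to or below the background and do not set the genes apart as a set. The median difference over the 9 genes was -0.02, 0.22 and -0.04, beside 0.00, -0.02 and -0.00 over all genes. No group was cultured without stimulation, so time in culture, IL-2 and the antibodies cannot be told apart. Fewer cells of a type and less RNA per cell cannot be told apart in such bulk samples either.

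Stat5a and Stat5b, which carry the IL-2 signal to the nucleus, both fell. Stat5a had 10.28, 10.20 and 10.26 on DMSO_0h arrays, 8.92, 9.25 and 9.23 on DMSO_18h arrays, and 8.90, 8.78 and 8.66 on DMSO_48h arrays. Stat5b had 9.97, 9.95 and 9.83 at 0 h, 8.72, 8.81 and 8.88 at 18 h, and 8.89, 8.70 and 8.71 at 48 h. For both genes every stimulated array was below every DMSO_0h array. At 18 h against 0 h the limma difference was -1.11 ± 0.103 for Stat5a (adjusted p = 2.51e-08) and -1.11 ± 0.0748 for Stat5b (adjusted p = 3.42e-10). At 48 h against 0 h it was -1.47 for Stat5a (95% interval -1.68 to -1.25; adjusted p = 3.61e-10) and -1.15 ± 0.0748 for Stat5b (adjusted p = 1.23e-10). These 4 calls held under every alternative setting and with each array left out. Between 18 and 48 h Stat5a fell further, by -0.35 ± 0.103 (adjusted p = 0.0161), and the arrays of those times did not overlap. That call was lost without DMSO_18h replicate 2 or 3 or DMSO_48h replicate 3, at -0.29 to -0.30 and adjusted p = 0.0601 to 0.0732. It was lost as well with the arrays centred on the median of all probe sets (-0.29; adjusted p = 0.0584) and with only the arrays compared in the fit (-0.35; adjusted p = 0.0516). Stat5b differed by -0.04 between those times (-0.20 to 0.12; adjusted p = 0.718).

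Socs2, best known as a brake on growth hormone signalling and a classic STAT5 target, showed the largest difference of the 9 genes. It had 6.95, 7.17 and 6.95 on DMSO_0h arrays, 10.39, 10.41 and 10.40 on DMSO_18h arrays, and 10.29, 10.23 and 10.18 on DMSO_48h arrays. The stimulated arrays were all about 3 log2 units above the DMSO_0h arrays. It rose by 3.38 ± 0.0724 at 18 h (10.4-fold; adjusted p = 2.86e-16) and by 3.21 ± 0.0724 at 48 h (9.24-fold; adjusted p = 1.73e-16). Between 18 and 48 h its arrays did not overlap, with a difference of -0.17 (-0.32 to -0.02) that missed the threshold at adjusted p = 0.0867 and was called under 3 other settings (-0.17 to -0.23; adjusted p = 0.0184 to 0.047). Socs1, which blocks Janus kinases directly, had 6.93, 6.58 and 6.95 at 0 h, 8.63, 8.68 and 8.89 at 18 h, and 8.68, 8.94 and 8.97 at 48 h. Its stimulated arrays were all above the DMSO_0h arrays and overlapped each other. It rose by 1.91 ± 0.138 at 18 h (3.76-fold; adjusted p = 8.96e-10) and by 2.04 ± 0.138 at 48 h (4.11-fold; adjusted p = 2.16e-10).

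Cish, whose protein CIS binds cytokine receptors and competes for STAT5 docking, was high at 18 h only. Its values were 9.85, 8.82 and 9.87 on DMSO_0h arrays, 10.52, 10.49 and 10.34 on DMSO_18h arrays, and 9.94, 9.80 and 9.92 on DMSO_48h arrays. DMSO_18h arrays were above all others, whereas DMSO_48h overlapped DMSO_0h, and DMSO_0h replicate 2 lay about 1 log2 unit below the other 0 h arrays. The rise at 18 h was 0.94 ± 0.177 (0.57 to 1.31; adjusted p = 0.000142) with that array and 0.59 ± 0.0771 (adjusted p = 3.28e-06) without it. At 48 h against 0 h Cish differed by 0.37 (adjusted p = 0.0648) with it and by 0.03 (adjusted p = 0.756) without it. Without DMSO_0h replicate 1 or 3, the difference at 48 h was 0.54 or 0.55 and was called (adjusted p = 0.0141 and 0.0112), as it was with the arrays centred on the median of all probe sets (0.55; adjusted p = 0.00946). Cish fell between 18 and 48 h, by -0.56 ± 0.177 (-0.94 to -0.19; adjusted p = 0.0232). This call was lost without DMSO_18h replicate 1 or 2 or DMSO_48h replicate 2, at -0.52 to -0.54 and adjusted p = 0.0517 to 0.0823. With DMSO_0h replicate 2 kept out of the shared spread, the fall had SE 0.069 in place of 0.177 and adjusted p = 1.09e-05.

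Socs3, the brake on gp130 cytokines such as interleukin-6, and Socs5 were not called in any of the 3 comparisons over time with the values as deposited. Socs3 had 6.68, 6.66 and 6.78 at 0 h, 6.67, 6.64 and 6.75 at 18 h, and 6.48, 6.70 and 6.48 at 48 h. Its groups overlapped, and its interval at 18 h ran from -0.24 to 0.20. Socs5 differed by -0.05 at 18 h (adjusted p = 0.746) and by 0.22 at 48 h (-0.04 to 0.48; adjusted p = 0.114), with DMSO_48h arrays at 6.52, 6.29 and 6.53 above those of DMSO_0h at 6.26, 6.24 and 6.18. With the arrays centred on the median of all probe sets, the Socs5 difference at 48 h was 0.39 and was called (adjusted p = 0.0101). Socs4 rose late. It had 7.36, 7.30 and 7.34 at 0 h, 7.40, 7.47 and 7.13 at 18 h, and 7.97, 8.21 and 8.04 at 48 h. The DMSO_48h arrays were above all others, by 0.74 ± 0.0974 against 18 h (adjusted p = 1.75e-05) and by 0.74 against 0 h (1.67-fold; adjusted p = 1.75e-06), and both calls held under every alternative setting and with each array left out.

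Socs7, whose protein shuttles between nucleus and cytoplasm, was marginal. It averaged 7.42 ± 0.14 at 0 h, 7.17 ± 0.148 at 18 h and 7.43 ± 0.0888 at 48 h (SD, n = 3 each). The highest 18 h array and the lowest 0 h array both rounded to 7.26, and the fall of -0.26 ± 0.107 (adjusted p = 0.0436) was lost without DMSO_0h replicate 1, DMSO_0h replicate 2 or DMSO_18h replicate 1, at -0.17 to -0.23 and adjusted p = 0.11 to 0.201. It was lost as well under 5 other settings, among them with the arrays centred on the median of all probe sets (-0.15; adjusted p = 0.264). Between 18 and 48 h Socs7 was called only with centring (0.34; adjusted p = 0.0336) and with array quality weights (0.31; adjusted p = 0.0383). That centring shifts all genes, by a median of 0.11 at 18 h and 0.15 at 48 h, and the differences of Socs1, Socs2, Stat5a and Stat5b from 0 h kept their direction and call under it.

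**Figure D2:**
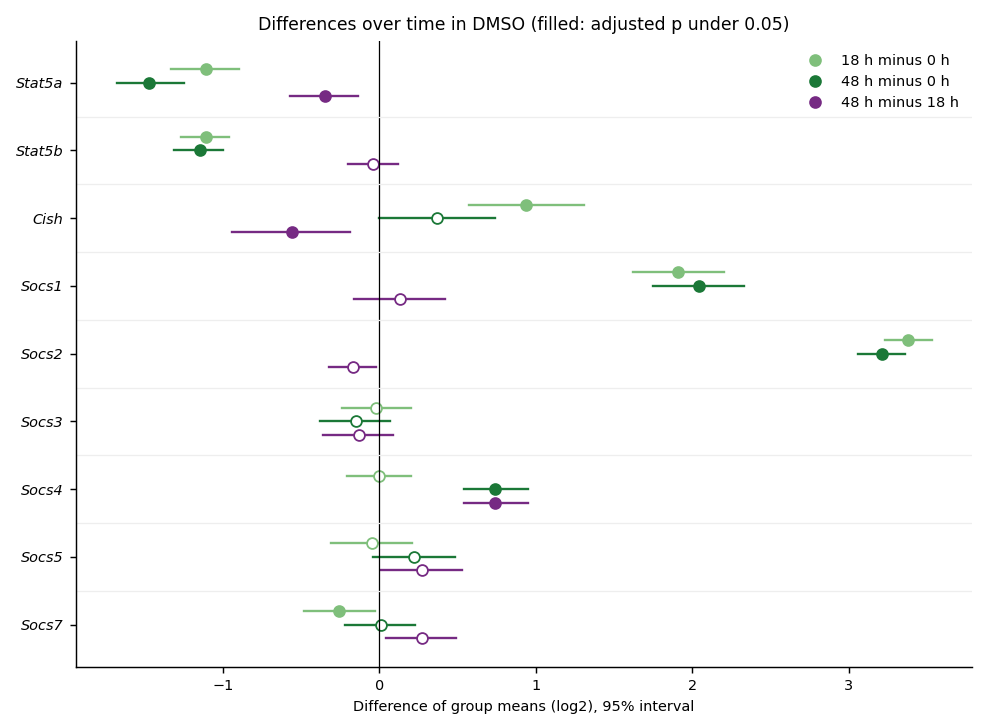
Difference of DMSO group means on the log2 scale (horizontal axis) with its 95% interval for the 9 genes tested, for 18 h minus 0 h, 48 h minus 0 h and 48 h minus 18 h; filled points have an adjusted p under 0.05. Socs2 and Socs1 lie far to the right and Stat5a and Stat5b to the left at both times, Socs4 differs at 48 h and not at 18 h, and Cish has opposite signs in the 18 h and the 48 h minus 18 h differences.

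The inhibitor groups ask what blocking prenylation does to these genes at a matched time. At 18 h neither inhibitor left a call. With FTI, 0 of 9 genes were called (1 at an unadjusted p under 0.05), beside 3.3% of all genes. With GGTI, 0 of 9 were called (2 at an unadjusted p under 0.05), beside 5.94%. The medians over the 9 genes were -0.04 for GGTI and 0.00 for FTI, beside -0.01 and 0.00 over all genes.

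Socs2 was nearest to a call with FTI at 18 h. It had 10.59, 10.67 and 10.73 on FTI_18h arrays, against 10.39, 10.41 and 10.40 on DMSO_18h arrays, groups that did not overlap. The difference of 0.26 ± 0.0724 (0.11 to 0.41) had adjusted p = 0.0565, and it was called under 4 other settings (adjusted p = 0.0196 to 0.0494). With GGTI at 18 h Socs4 had 7.06 and 6.92, against 7.40, 7.47 and 7.13 on DMSO_18h arrays. The GGTI arrays were below all DMSO arrays, with a difference of -0.34 ± 0.109 (adjusted p = 0.0793), called without DMSO_18h replicate 3 (-0.44; adjusted p = 0.0247). Stat5a had 9.03 and 8.64 on GGTI_18h arrays, against 8.92, 9.25 and 9.23 on DMSO_18h arrays. These overlapped, at -0.30 (-0.54 to -0.06; adjusted p = 0.149), and were called without DMSO_18h replicate 1 (-0.41; adjusted p = 0.0409). Cish stayed within 10.41 and 10.52 on all but 1 of the 8 arrays of 18 h, the other being 10.34 in DMSO_18h, and its intervals were -0.39 to 0.43 for GGTI and -0.39 to 0.35 for FTI.

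At 48 h GGTI left Cish, Socs2 and Socs3 higher and Socs4 and Socs5 lower than DMSO, while the STAT5 genes were not called. The calls were 5 of 9 (3 higher, 2 lower), beside 40.3% of all genes (18.4% higher, 21.9% lower). FTI left Socs4 lower and no other gene called: 1 of 9, beside 7.66%. All differences were below 0.5 log2 units in size. That of Socs2 with GGTI was small beside its rise of 3.21 at 48 h against 0 h in DMSO. Socs3 and Socs5, however, differed more in size with GGTI (0.34 and -0.41) than over time in DMSO. Their largest differences over time were -0.15 and 0.27. The medians over the 9 genes were -0.16 for GGTI and -0.11 for FTI, beside -0.01 and -0.00 over all genes.

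Cish had 10.42, 10.36 and 10.34 on GGTI_48h arrays and 10.02, 9.91 and 10.09 on FTI_48h arrays, against 9.94, 9.80 and 9.92 on DMSO_48h arrays. The GGTI_48h arrays were above all other 48 h arrays, and FTI_48h overlapped DMSO_48h. With GGTI Cish rose by 0.49 ± 0.177 (0.12 to 0.86; adjusted p = 0.0347), and with FTI it differed by 0.12 (-0.25 to 0.50; adjusted p = 0.74). The GGTI call was lost with any 1 of the 6 arrays of DMSO_48h and GGTI_48h left out (0.44 to 0.52; adjusted p = 0.056 to 0.106). With all arrays it was lost under centring (0.44; adjusted p = 0.0544), with no filter on dim probe sets (adjusted p = 0.0554) and with trend and robust variances (adjusted p = 0.0504), and it was kept under the other 6 settings. With DMSO_0h replicate 2 kept out of the shared spread the same 0.49 had SE 0.069 and adjusted p = 1.99e-05. In GGTI_48h Cish averaged 10.37 ± 0.0421 (SD, n = 3), and its arrays overlapped those of DMSO_18h and FTI_18h.

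Socs2 had 10.58, 10.58 and 10.60 on GGTI_48h arrays and 10.37, 10.31 and 10.46 on FTI_48h arrays, against 10.29, 10.23 and 10.18 on DMSO_48h arrays. The 3 groups were apart in that order. GGTI raised it by 0.36 ± 0.0724 (1.28-fold; 0.20 to 0.51; adjusted p = 0.000635), a call kept under all settings and with each array left out, and FTI gave 0.15 (-0.00 to 0.30; adjusted p = 0.237). Socs3 had 7.01, 6.92 and 6.75 on GGTI_48h arrays and 6.42, 6.56 and 6.33 on FTI_48h arrays, against 6.48, 6.70 and 6.48 on DMSO_48h arrays. Only the GGTI_48h arrays lay above DMSO_48h. GGTI raised Socs3 by 0.34 ± 0.106 (0.12 to 0.56; adjusted p = 0.0147), and FTI gave -0.12 (-0.34 to 0.10; adjusted p = 0.555). The GGTI call was lost without DMSO_48h replicate 1, DMSO_48h replicate 3 or GGTI_48h replicate 1 (0.28 to 0.31; adjusted p = 0.0559 to 0.0744). Socs3 was thus the feedback gene that stimulation did not call and GGTI at 48 h did.

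Socs4 had 7.61, 7.69 and 7.72 on GGTI_48h arrays and 7.51, 7.77 and 7.76 on FTI_48h arrays, against 7.97, 8.21 and 8.04 on DMSO_48h arrays. Every inhibitor array was below every DMSO_48h array and above every array of 0 and 18 h. It fell by -0.40 ± 0.0974 with GGTI (-0.60 to -0.19; adjusted p = 0.00287) and by -0.39 ± 0.0974 with FTI (-0.60 to -0.19; adjusted p = 0.0167). The FTI call was lost without DMSO_48h replicate 2 (-0.33; adjusted p = 0.106) or FTI_48h replicate 1 (-0.31; adjusted p = 0.115), and the GGTI call was kept under all settings and with each array left out. The comparisons share the DMSO_48h arrays, in which Socs4 was at its highest. Socs5 had 5.82, 5.97 and 6.32 on GGTI_48h arrays and 6.33, 6.12 and 6.45 on FTI_48h arrays, against 6.52, 6.29 and 6.53 on DMSO_48h arrays. Its GGTI and DMSO arrays overlapped. The GGTI difference of -0.41 ± 0.123 (adjusted p = 0.0122) was lost without DMSO_48h replicate 3 (-0.37; adjusted p = 0.0501) or GGTI_48h replicate 1 (-0.30; adjusted p = 0.0817).

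Stat5a, Stat5b, Socs1 and Socs7 were not called with either inhibitor at 48 h. Stat5a had 8.61, 8.59 and 8.54 on GGTI_48h arrays, below all FTI_48h (8.96, 8.87 and 8.81) and DMSO_48h arrays (8.90, 8.78 and 8.66), at -0.20 against DMSO (-0.42 to 0.02; adjusted p = 0.135). For Stat5b the intervals were -0.19 to 0.12 with GGTI and -0.15 to 0.16 with FTI, the narrowest bounds of these 4 genes. Socs1 had 8.68, 8.86 and 8.54 with GGTI and 8.81, 8.59 and 8.20 with FTI, against 8.68, 8.94 and 8.97 with DMSO. The FTI difference of -0.33 (-0.62 to -0.04; adjusted p = 0.168) did not pass, and its groups overlapped. Markers of red cells moved with GGTI at 48 h: the 4 genes summed to 389 to 436 on GGTI_48h arrays and 193 to 224 on DMSO_48h arrays in linear signal, with Hba-a1 up by 2.06 (adjusted p = 4.11e-08). The 6 CD8 T and NK genes summed to 541 to 641 on GGTI_48h and 401 to 496 on FTI_48h arrays, against 611 to 711 on DMSO_48h arrays. Members of that sum moved in opposite directions. Eomes fell by -2.67 with GGTI (adjusted p = 1.11e-08) and by -3.37 with FTI (adjusted p = 1.48e-08), not above background in FTI_48h, whereas Cd8b1 rose by 0.78 with GGTI (adjusted p = 1.34e-05) and by 0.38 with FTI (adjusted p = 0.0424). The part of these markers in the results was not tested.

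**Figure D3:**
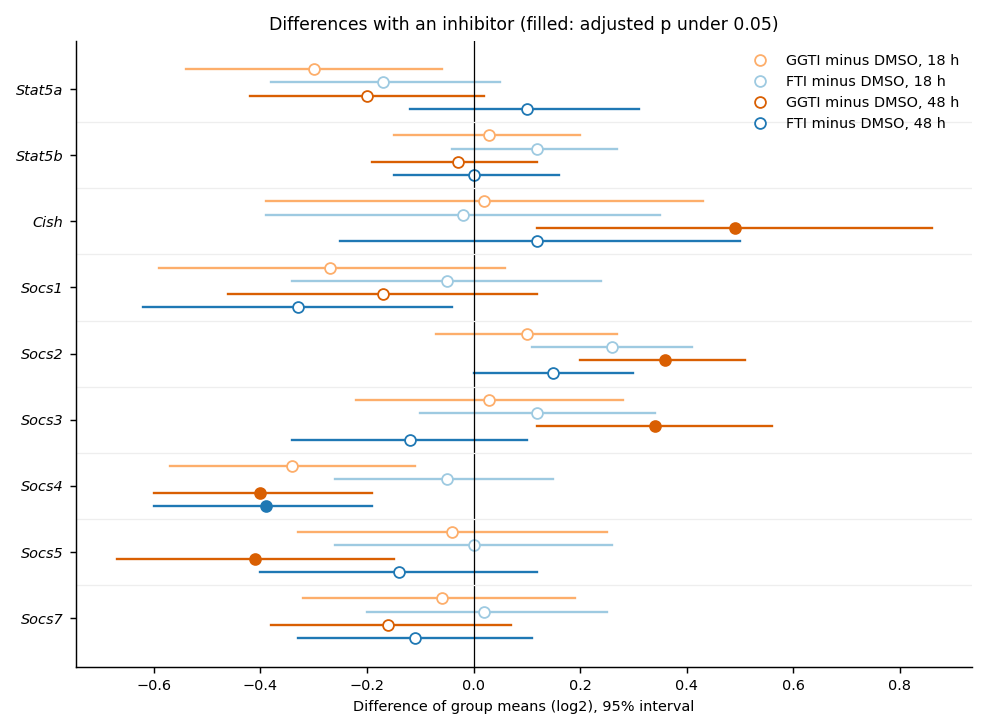
Difference from DMSO of the same time on the log2 scale (horizontal axis) with its 95% interval for the 9 genes tested, for GGTI and FTI at 18 h and at 48 h; filled points have an adjusted p under 0.05. No 18 h point is filled; at 48 h Cish, Socs2 and Socs3 lie right of 0 with GGTI, Socs5 lies left with GGTI, and Socs4 lies left with both inhibitors.

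GGTI and FTI could be set against each other at matched times, although not at known doses. At 18 h, 0 of 9 genes were called between them (1 at an unadjusted p under 0.05, Socs4 at -0.28 and adjusted p = 0.241), beside 2.29% of all genes. At 48 h, 3 of 9 were called, beside 27.5% (13.6% higher, 13.9% lower): Socs2 and Socs3 were higher and Stat5a lower with GGTI. Each of the 11 comparisons covered all 9 genes, with p-values adjusted over all 12462 genes tested within a comparison. Socs3 differed by 0.46 ± 0.106 (1.38-fold; 0.24 to 0.68; adjusted p = 0.00281), with all GGTI_48h arrays above all FTI_48h arrays and the call kept under all settings and with each array left out. Socs2 differed by 0.21 ± 0.0724 (0.05 to 0.36; adjusted p = 0.0405) and Stat5a by -0.30 ± 0.103 (-0.51 to -0.08; adjusted p = 0.0393). Both sets of arrays were apart, yet the Socs2 call was lost without any 1 of 5 of the 6 arrays (0.17 to 0.21; adjusted p = 0.0864 to 0.154; FTI_48h replicate 3 was the exception), and the Stat5a call without any of the 6 (-0.26 to -0.33; adjusted p = 0.05 to 0.132). With no filter on dim probe sets both calls were lost (adjusted p = 0.108 for Socs2 and 0.0792 for Stat5a), and centring ended that of Socs2 (adjusted p = 0.0754). Cish was apart as well, at 0.36 (-0.01 to 0.73; adjusted p = 0.144), and was called under 3 other settings: array quality weights (adjusted p = 0.00843), only the arrays compared (adjusted p = 0.00536), and DMSO_0h replicate 2 kept out of the shared spread (SE 0.069; adjusted p = 0.000613). Socs4 did not separate the inhibitors: its difference was -0.00, with an interval of -0.21 to 0.20 (adjusted p = 0.985).

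Whether an inhibitor's difference itself changed between 18 and 48 h was tested by interaction. For FTI, 0 of 9 genes were called (1 at an unadjusted p under 0.05), beside 0.433% of all genes. For GGTI, 0 of 9 were called (1 at an unadjusted p under 0.05), beside 9.51%. The GGTI interaction was 0.47 for Cish (-0.09 to 1.02; adjusted p = 0.334), 0.26 for Socs2 (0.03 to 0.49; adjusted p = 0.164) and 0.31 for Socs3 (-0.02 to 0.65; adjusted p = 0.263). For Socs4 it was -0.06 with GGTI (adjusted p = 0.875) and -0.34 with FTI (-0.63 to -0.05; adjusted p = 0.474). A call at 48 h and none at 18 h is therefore not shown to be a difference between the times for these genes. The GGTI interaction of Cish, 0.47, was called under 2 other settings: with only the arrays compared in the fit (adjusted p = 0.0226) and with DMSO_0h replicate 2 kept out of the shared spread (SE 0.103; adjusted p = 0.00661).

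Over all 7 groups the means of Socs2 spanned 3.64, of Socs1 2.04, of Stat5a 1.67, of Stat5b 1.19, of Socs4 1.08 and of Cish 0.96 on the log2 scale. Those of Socs3, Socs5 and Socs7 spanned 0.46, 0.40 and 0.33. Socs1 and Stat5b had DMSO_0h apart and the 6 stimulated groups overlapping as neighbours in the order of levels. For Stat5a, DMSO_0h was highest and apart, GGTI_48h lowest and apart, and the other 5 overlapped as neighbours only. Among those 5, DMSO_18h and DMSO_48h did not overlap. Cish fell into the 18 h groups with GGTI_48h above, and FTI_48h, DMSO_48h and DMSO_0h below. Neighbouring groups of Socs3, Socs5 and Socs7 all overlapped.

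For the 5 genes whose means spanned at least 1, the genes most like them by Pearson r over the 20 arrays are given as a description, since the arrays share the split between 0 h and stimulation. Socs2 was most like Agpat3 (0.990), Banf1 (0.989), Cox5b (0.987) and Ndufa4 (0.986). Socs1 was most like Sec61b, Pcbp1, Lrp8 and Fabp5 (0.968 to 0.971). Stat5b was most like Smad7 (0.984), Pou6f1, Vps37b and Dusp10 (0.972 to 0.977), and Stat5a most like Camk4 (0.972), Sf1, Cblb and Tomm34 (0.955 to 0.961). Socs4, with the weakest likeness, was closest to Dbf4 (0.912), the regulatory subunit of the replication kinase, then Nup35, Ssr3 and Rnf20 (0.895 to 0.901).

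The rest of the pathway was read from gene lists, upstream to downstream. These lists were chosen with earlier results of these data known, so their counts are a description only. At 18 h against 0 h, of 8 receptors of IL-2 and its relatives, 5 rose and 2 fell (median 0.27), beside 33.7% of all genes higher and 27.2% lower. Il2ra rose by 2.09 ± 0.0941 (adjusted p = 1.93e-12), a size limited by background since DMSO_0h was not above it, and Il2rb by 0.40 (adjusted p = 1.78e-05). Il7r, the receptor chain of resting T cells, fell by -2.25 ± 0.149 (adjusted p = 2.73e-10). Of the 9 Janus kinases and other STATs, 2 rose and 6 fell (median -0.54), beside the same 33.7% and 27.2% of all genes, among them Stat4 at -1.55, Jak2 at -1.47 and Stat2 at -1.02.

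Other brakes on the pathway split, with 2 of 10 tested higher and 5 lower at 18 h (median -0.18). Every count at 18 h here stands beside 33.7% of all genes higher and 27.2% lower, with a median of 0.00 over all genes. Ptpn6, the phosphatase SHP-1, rose by 2.67 ± 0.107 (adjusted p = 4.14e-13), and Pias1, a STAT inhibitor, fell by -0.87 (adjusted p = 5.43e-07). The partners of the SOCS box rose in 6 of 8 cases and fell in 1 (median 0.38), led by the elongins Elob at 0.95 ± 0.0908 and Eloc at 0.61 ± 0.0741. Of 17 genes that IL-2 and STAT5 are known to induce, 12 rose and 1 fell (median 0.40), including Ccnd2, a cyclin, at 1.58, and Bcl2l1, a survival gene, at 1.52. Of 4 genes that IL-2 signalling is known to lower, 4 fell (median -1.68), with Bcl6 at -2.50 ± 0.142. At 48 h the induced list had 14 higher and 1 lower, and the lowered list 0 higher and 4 lower, beside 38.5% of all genes higher and 36.2% lower. The myeloid markers Cd68 and Cd74 fell at 18 h, by -1.19 (adjusted p = 2.65e-08) and -1.27 (adjusted p = 4.66e-06), and their part in these counts was not tested.

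With GGTI at 48 h, where 18.4% of all genes were higher and 21.9% lower with a median of -0.01, most pathway lists held calls in both directions. The exceptions were the SOCS box partners, with lower calls only, and the genes that IL-2 lowers, with higher calls only. Il7r rose by 2.53 ± 0.149 (adjusted p = 3.01e-10) and the 8 IL-2 family receptors had 6 higher and 2 lower (median 0.28), with Il21r at -1.41. Of 11 other cytokine receptors tested, 9 rose and 2 fell (median 0.53), beside 18.4% and 21.9% of all genes. Those that rose included Il10ra at 1.49, Il6ra at 1.60 and Ifnar1 at 0.90. The 2 that fell were Il12rb1 and Il12rb2. Il12rb1 averaged 6.94 in GGTI_48h and 8.96 in DMSO_48h, and Il12rb2 averaged 8.59 and 10.2. Of the 9 Janus kinases and other STATs, 5 rose and 3 fell, with Stat4 at 1.14 and Tyk2 at 0.61 against Stat3 at -0.55. Ligand genes were mostly dim: 5 of 14 were tested, of which 1 rose and 3 fell, with Ifng at -2.57 and Il10 at -1.97, both not above background in GGTI_48h. The SOCS box partners had 0 higher and 4 lower of 8 (median -0.31), led by the cullins Cul2 at -1.14 ± 0.118 (adjusted p = 3.67e-07) and Cul5 at -0.64 ± 0.121 (adjusted p = 0.00033). Cul5 and Socs4 were both lower with each inhibitor at 48 h.

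The genes that IL-2 and STAT5 induce had 8 higher and 3 lower of 17 with GGTI at 48 h (median 0.22), beside 18.4% of all genes higher and 21.9% lower. Pim1, a survival kinase, rose by 0.91 ± 0.0831 (adjusted p = 8.11e-08) and Bcl2 by 0.87 ± 0.1, beside the rises of Cish and Socs2, and the cytokine gene Lif fell by -1.13. Socs1 was not called (-0.17). In DMSO Pim1 went down with time, averaging 11.53 at 0 h, 11.09 at 18 h and 10.40 at 48 h. Its mean of 11.31 in GGTI_48h was thus below that of DMSO_0h. The genes that IL-2 lowers rose in 4 of 4 cases (median 1.22), Il7r and Bcl6 (0.84) among them, so members of both lists were higher. With FTI at 48 h, where 7.66% of all genes were called, the induced list had 1 higher and 4 lower, with Gzmb, the granzyme B gene, at -1.70, and the lowered list 3 higher and 0 lower. FTI lowered 3 of 8 SOCS box partners, Cul2 at -0.65, Cul5 at -0.42 and Ube2f at -0.37, and raised none. Between the inhibitors at 48 h, where 27.5% of all genes were called (13.6% higher, 13.9% lower), the induced list had 9 higher and 1 lower with GGTI, including Ccnd3 at 0.56, Pim1 at 0.67 and Il2ra at 0.49. The lists overlap: Il2ra, Il2rb, Il7r, Il6ra, Il6st, Osm and Lif each stand in more than 1.

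At 18 h the inhibitors called few of these genes, beside 3.3% of all genes for FTI and 5.94% for GGTI. FTI raised Il7r by 1.06 ± 0.149 (adjusted p = 0.00121) and 4 of 11 other cytokine receptors, and left 0 of the 9 Janus kinases and other STATs, 0 of 10 other brakes and 0 of 8 SOCS box partners called by limma (2, 0 and 1 at an unadjusted p under 0.05). GGTI raised Il7r by 1.28 ± 0.167 (adjusted p = 0.000165) and Il10ra by 0.65, and lowered Cul2 (-0.51). With no filter on dim probe sets, the FTI count of other receptors was 0 in place of 4, and that of GGTI for SOCS box partners was 0 in place of 1.

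**Figure D4:**
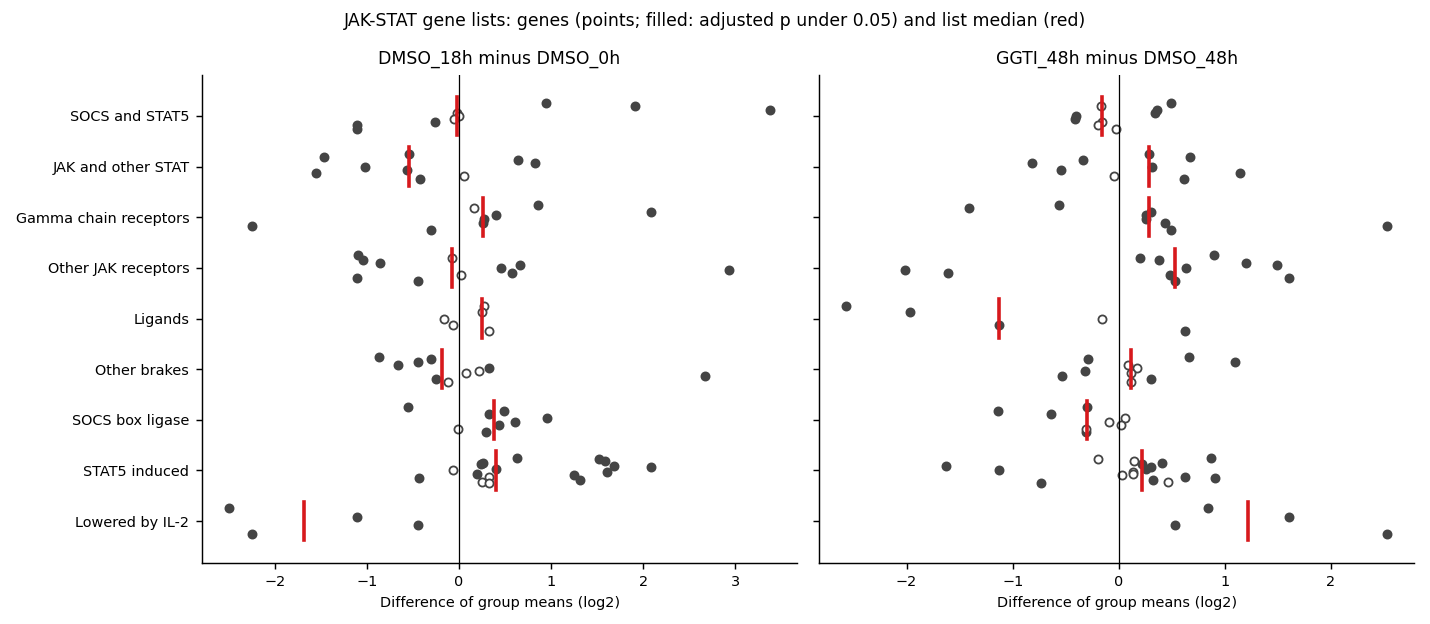
Difference of group means on the log2 scale (horizontal axes) for each gene of the SOCS and STAT5 set and of the 8 pathway lists (rows), at DMSO_18h minus DMSO_0h (left) and GGTI_48h minus DMSO_48h (right); points are genes, filled where the adjusted p is under 0.05, and red bars are list medians. The genes that IL-2 lowers lie left of 0 at 18 h (median -1.68) and right of 0 with GGTI at 48 h (median 1.22), and the SOCS box ligase has a median of 0.38 on the left and -0.31 on the right. The lists were chosen with earlier results of these data known.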

How the data were processed

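Per the labels' protocols, total RNA isolated with RNeasy Micro (1 to 20 ng) was amplified by NuGEN WTA Pico v2 and biotin-labelled. The deposited values are log2 signals that the authors made by RMA with Affymetrix Expression Console 1.1, per the submitters' processing notes. RMA sets all arrays to 1 distribution, which can hide a shift shared by most genes. The 2 deposited tables differed by at most 1.8e-15, so 1 was used. The genome build of the array design is not given in the sources used here.

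Of 28846 probe sets, 22202 had 1 gene symbol; RefSeq accessions matched 20464 and updated 910 symbols. The probe set of highest mean stood for a gene, and 12462 genes passed the filter. Differences were tested by limma 3.58.1 (R 4.3.3), with 7 group means on 20 arrays, 13 residual and 4.98 prior degrees of freedom, 2-sided, in 11 comparisons. The method was tested on simulated data. Alternatives covered the filter, normalization, probe set rule, variance model, array weights and arrays fitted. The genes and pathway lists were chosen with earlier results of these data known. All 10 genes are named; of each list, up to 4 called genes of smallest p per comparison; for likeness, the 4 of highest r. Il12rb1 and Il12rb2 are named besides, as the receptors of their list that fell with GGTI at 48 h. A gene is not above background where its group mean is at or below that group's negative-control median. The added fit that keeps DMSO_0h replicate 2 out of the shared spread was chosen after seeing its Cish value.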

Additional observations from a re-analysis of the deposited data

How the results depend on the processing

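No paired analysis was possible because the labels give the arrays no replicate numbers that link groups. No difference called in the SOCS and STAT5 genes changed direction. Of their values recomputed under other settings, 183 kept the call and 13 lost it; with 1 array left out, 105 kept it and 33 lost it. With array quality weights the number of genes called of 9 was 5 in place of 3 for DMSO_48h against DMSO_18h, 2 in place of 1 for FTI_48h, and 5 in place of 3 for GGTI_48h against FTI_48h, where no filter gave 1. For FTI_18h it was 1 in place of 0, Socs2, with quantile normalization, a stricter filter, trend and robust variances, or DMSO_0h replicate 2 out of the shared spread. For the GGTI interaction it was 1 in place of 0, Cish, with only the arrays compared or with that array out of the shared spread. With 1 array left out, counts ranged from 1 to 3 for DMSO_48h against DMSO_18h, 0 to 1 for GGTI_18h, 0 to 1 for FTI_48h, 2 to 4 for GGTI_48h and 1 to 2 for GGTI_48h against FTI_48h. The share of all genes called moved by over 1.5 times in several comparisons. For FTI_18h it was 0.835% with no filter, 0.289% with only the arrays compared and 1.21 to 3.43% with 1 array left out, against 3.3% as reported; for GGTI_18h 2.02%, 1.04% and 1.61 to 5.7%, against 5.94%. Centring the arrays on the median of all probe sets changed the split of all genes called: 4834 higher and 2518 lower in place of 4202 and 3392 for DMSO_18h against DMSO_0h, 5668 and 3034 in place of 4798 and 4513 for DMSO_48h against DMSO_0h, 2668 and 951 in place of 2047 and 1576 for DMSO_48h against DMSO_18h, and 411 and 512 in place of 571 and 384 for FTI_48h. For FTI_48h, array weights called 17% of genes, against 7.66%, and leaving out an array 4.2 to 6.17%. For GGTI_18h against FTI_18h the shares were 3.5% with weights, 0.554% with only the arrays compared and 0.562 to 1.68% with 1 array left out, against 2.29%; the FTI interaction had 0.22 to 0.698%, against 0.433%. It was 18.3% for DMSO_48h against DMSO_18h without DMSO_48h replicate 2, against 29.1%, and 5.54% for the GGTI interaction without GGTI_18h replicate 2, against 9.51%. With no filter 11 of 88 list counts moved by over 1.5 times, and with centring 6 of 88. Apart from what these settings do by construction, such as testing more genes, the cause was not tested. Signal over background leaves Socs6 without a usable value: below the negative controls in each group, it was called with no filter for DMSO_48h against DMSO_0h, for DMSO_48h against DMSO_18h and for GGTI_48h.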
